A study of Homo sapiens with 9 samples.

Results

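The genes described here are 34 genes of cholesterol and fatty acid synthesis, with the SREBP proteins that control the pathway and the proteins that move sterols between membranes and out of the cell. They were taken by gene symbol from a list of the pathway's genes, and the rule for membership uses no measured value, although the list was drawn up with earlier results of these data known. All 34 were found among the 58381 genes of the count table, and all 34 were among the 17235 genes that passed the filter on low counts. RNA-seq of TC-32, a human Ewing sarcoma cell line that carries the fusion oncogene EWSR1::FLI1, gave 9 libraries in 3 groups of 3. The RFP group carried the lentiviral pLOC vector with a red fluorescent protein, and both other groups, ETS1-Low and ETS1-High, carried pLOC with a synthetic cDNA of human ETS1, a transcription factor of the same family as FLI1. All cells kept EWSR1::FLI1, were grown in medium with fetal bovine serum, and were selected with puromycin and sorted as single cells after transduction. The study set ETS1-High at about the ETS1 level that cells reach when EWSR1::FLI1 is depleted, and ETS1-Low below it. The ETS1 groups are single-cell clones, the number of clones behind each group is not given in the sources used here, and an effect of ETS1 and a difference between clones cannot be told apart.

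Cells make cholesterol from acetyl-CoA through the mevalonate arm, which ends in farnesyl diphosphate, and through the sterol arm, which runs from squalene through lanosterol to cholesterol. When sterol in the endoplasmic reticulum is low, SCAP carries the SREBP proteins to the Golgi, where they are cut and released to switch on synthesis and uptake genes, while INSIG proteins hold SCAP back when sterol is high. LXR receptors answer sterol excess by switching on the exporters ABCA1 and ABCG1, and SREBP-1 also drives the fatty acid arm from ACLY to SCD and ELOVL6.

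Promoter sequences are shown for 7 members on which the results turn, taken from RefSeq (GRCh38.p14). The table of promoters held 39 promoters for 29 of the 34 genes. Each line gives the stretch upstream of the start site that lies outside annotated exons, 5′ to 3′ on the gene's strand. Capitals mark TCACNCCAC, 1 exact form of the sterol regulatory element, the NF-Y box CCAAT or its reverse complement, and the ETS motif CCGGAAG or its reverse complement. SREBF2 is shown as the 1 of 29 members with the exact letters TCACNCCAC in its window. HMGCS1, STARD4 and ABCA1 are shown for their falls in ETS1-Low. MSMO1 and DHCR7 are examples of the 3 genes that rose at least 2-fold in ETS1-High, and INSIG2 is shown for its ETS motifs.
SREBF2, chr22:41832855-41833104 (+ strand): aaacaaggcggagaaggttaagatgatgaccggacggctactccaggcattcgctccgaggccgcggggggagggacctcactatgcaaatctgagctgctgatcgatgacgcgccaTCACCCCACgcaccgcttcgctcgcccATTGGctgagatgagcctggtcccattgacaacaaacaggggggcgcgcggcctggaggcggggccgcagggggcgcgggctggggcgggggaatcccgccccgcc
HMGCS1, chr5:43313513-43313662 (- strand): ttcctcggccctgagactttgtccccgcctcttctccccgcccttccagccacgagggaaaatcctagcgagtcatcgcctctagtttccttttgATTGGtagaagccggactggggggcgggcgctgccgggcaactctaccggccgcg
STARD4, chr5:111512591-111512785 (- strand): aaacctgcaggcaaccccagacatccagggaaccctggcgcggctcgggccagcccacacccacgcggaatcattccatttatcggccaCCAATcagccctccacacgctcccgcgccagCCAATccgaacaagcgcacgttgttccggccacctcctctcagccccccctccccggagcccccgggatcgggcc
MSMO1, chr4:165327419-165327666 (+ strand): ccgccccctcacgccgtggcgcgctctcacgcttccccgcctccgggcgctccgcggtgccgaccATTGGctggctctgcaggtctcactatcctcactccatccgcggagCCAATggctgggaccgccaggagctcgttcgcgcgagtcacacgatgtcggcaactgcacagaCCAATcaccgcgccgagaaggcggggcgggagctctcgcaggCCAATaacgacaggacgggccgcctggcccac
DHCR7, chr11:71448436-71448643 (- strand): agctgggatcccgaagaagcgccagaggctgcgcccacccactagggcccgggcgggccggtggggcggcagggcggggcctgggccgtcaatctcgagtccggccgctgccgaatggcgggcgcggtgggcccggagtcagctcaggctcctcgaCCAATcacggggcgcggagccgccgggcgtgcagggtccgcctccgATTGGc
INSIG2, chr2:118088221-118088451 (+ strand): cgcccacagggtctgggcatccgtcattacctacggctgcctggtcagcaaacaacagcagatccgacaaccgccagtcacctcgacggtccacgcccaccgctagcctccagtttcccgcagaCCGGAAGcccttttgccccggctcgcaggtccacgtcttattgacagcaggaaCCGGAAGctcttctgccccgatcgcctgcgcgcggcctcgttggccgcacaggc
ABCA1, chr9:104928156-104928405 (- strand): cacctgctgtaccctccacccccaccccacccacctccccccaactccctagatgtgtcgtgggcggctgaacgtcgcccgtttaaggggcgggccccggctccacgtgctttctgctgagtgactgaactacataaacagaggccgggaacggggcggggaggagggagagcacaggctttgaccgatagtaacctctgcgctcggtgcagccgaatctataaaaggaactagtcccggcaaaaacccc

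Over windows of 250 bases before to 50 bases after the start, searched on both strands, the letters TCACNCCAC were found in 1 of 39 member promoters, against 1.13% of all 35116 promoters in the table. The NF-Y box CCAAT stood in the promoters of 20 of 29 member genes (69.0%), against 39.7% of all genes. All genes here are the 27305 genes with a promoter listed, without a filter on expression or gene type, whereas all members were expressed. A share over expressed genes was not computed. The Sp1 box GGGCGG stood in 27 of 29 (93.1%), against 48.3% of all genes. The ETS letters CCGGAAG stood in 4 of 29 (13.8%), namely CYP51A1, FDPS, IDI1 and INSIG2, against 12.2% of all genes. INSIG2 holds 2 of these ETS matches in the stretch printed, MSMO1 holds 4 NF-Y boxes, STARD4 and DHCR7 hold 2 each, HMGCS1 and SREBF2 hold 1 each, and the ABCA1 stretch holds none of the 3 motifs marked. A match describes the letters of the window and is no evidence of binding. Only these exact letters were searched, so sterol elements that vary from TCACNCCAC were not counted, and their absence is not shown.

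Total expected counts ran from 39484704 to 46654734 per library, and the 34 genes together took 0.407 to 0.422% of the counts in RFP, 0.356 to 0.364% in ETS1-Low and 0.366 to 0.375% in ETS1-High. ETS1 itself averaged 2.00, 10.6 and 19.1 CPM (read counts scaled to a fixed library size) in RFP, ETS1-Low and ETS1-High, so it followed the labels. All 8 Ewing sarcoma markers were detected, with a summed level of 2560 to 2660 CPM in RFP and 3800 to 3880 CPM in both ETS1 groups. Most of that sum was CCND1, with group means of 1548 CPM for RFP, 2518 for ETS1-Low and 2498 for ETS1-High, while GLI1 was low and fell in both ETS1 groups (1.41, 0.561 and 0.711 CPM, edgeR adjusted p = 2.89e-06 and 0.000131). Immune markers summed to at most 1.56 CPM, endothelial markers to at most 5.56 CPM, with the highest values in ETS1-High, and epithelial markers to at most 0.222 CPM, and CD3E was at 0 in every library. In bulk RNA, fewer cells of a type and less RNA per cell cannot be told apart. The labels do not say whether the libraries of a group came from separate cultures, so p-values measure the spread between libraries as labelled, which may be technical.

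Most of the 34 genes differed between groups, and so did most genes in these cells. A gene was called where the edgeR quasi-likelihood test gave a Benjamini-Hochberg adjusted p under 0.05 over all 17235 genes. In ETS1-Low against RFP, 11 members rose and 19 fell, where 37.9% of all tested genes were called higher and 36.2% lower. In ETS1-High against RFP, 18 rose and 11 fell, where 37.0% of all genes were called higher and 37.2% lower. In ETS1-High against ETS1-Low, 24 were higher and 7 lower, where the shares over all genes were 29.9% and 29.3%. The balance between directions depended on the scale: on log2(FPKM + 1) with limma, for genes whose FPKM averaged 1 or more, the calls became 5 higher and 20 lower in ETS1-Low, 13 higher and 14 lower in ETS1-High, and 23 higher and 3 lower between both ETS1 groups. Among the called members only, the share that was higher then moved from 36.7 to 20.0%, from 62.1 to 48.1% and from 77.4 to 88.5%. That scale shifts the median of all genes by -0.11 in ETS1-High and -0.13 in ETS1-Low (log2), so small differences from RFP are given below with their direction on both scales where it changes.

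The sizes of the differences were modest for most members. The median log2 fold change of the 34 genes was -0.12 in ETS1-Low against RFP, where all tested genes had 0.01, 0.13 in ETS1-High against RFP (all genes -0.0094, and the members' median turned to -0.02 on the FPKM scale), and 0.39 in ETS1-High against ETS1-Low (all genes near 0.00). Calls of at least 2-fold were made for 5 members in ETS1-Low against RFP (14.7%, against 20.6% of all genes), for 4 in ETS1-High against RFP (11.8% against 21.0%) and for 3 in ETS1-High against ETS1-Low (8.82% against 9.74%). The median size of change without regard to sign was 0.27, 0.31 and 0.43 for the members in these comparisons, beside 0.41, 0.40 and 0.25 for all tested genes. Both comparisons with RFP use the same RFP libraries, and the third shares the libraries of each ETS1 group with them, so the 3 sets of values are given side by side and are not independent.

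**Figure D1:**
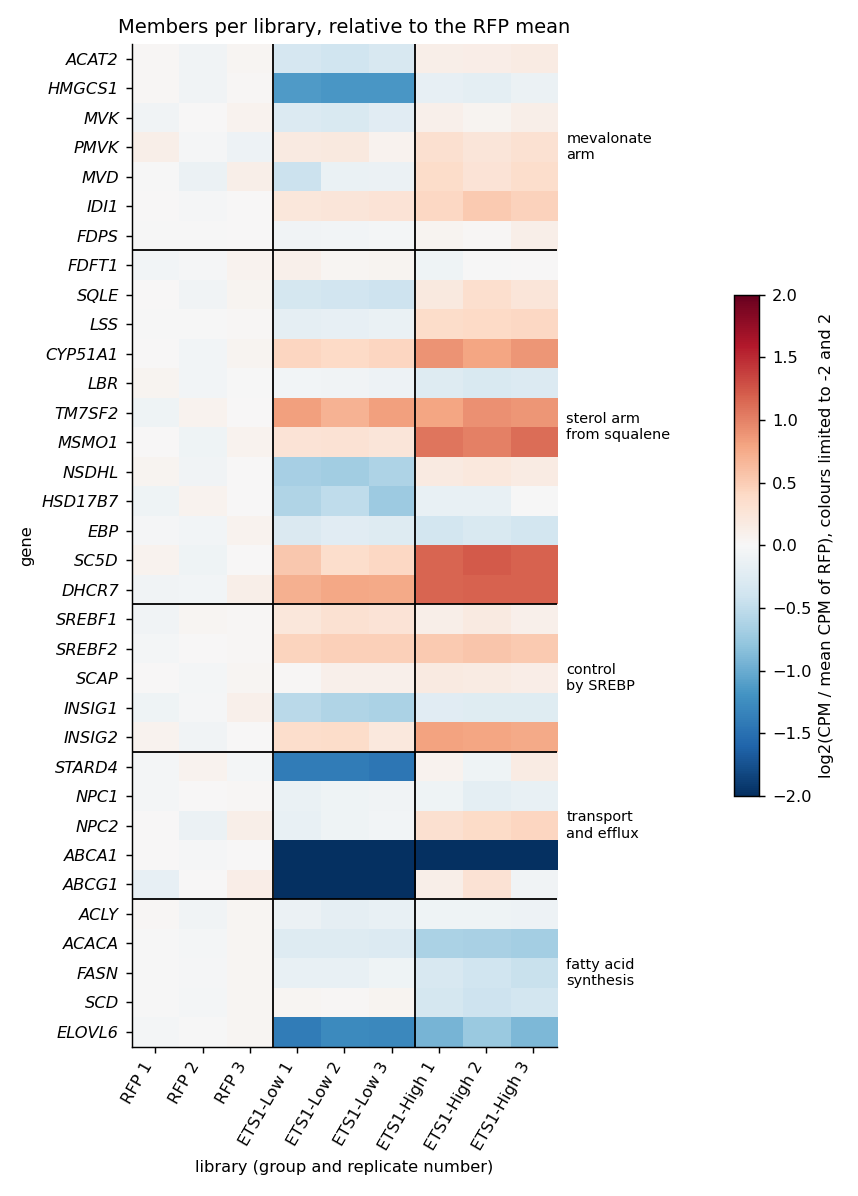
Level of each of the 34 genes (rows, grouped by role) in each of the 9 libraries (columns) as log2 of its CPM over the mean CPM of the RFP libraries, with red above and blue below that mean and colours limited to -2 and 2. The ETS1-Low columns are blue for HMGCS1, STARD4 and ABCG1, and the ETS1-High columns are reddest for SC5D, DHCR7 and MSMO1. ABCA1 and, less strongly, ELOVL6 are blue in all 6 ETS1 libraries.

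The mevalonate arm has 7 members here. Against RFP, 2 members rose and 4 fell in ETS1-Low, while 5 rose and 1 fell in ETS1-High, and all 7 stood above ETS1-Low in ETS1-High. The median log2 fold changes were -0.22, 0.14 and 0.36 in this order. Over all tested genes, 37.9% were called higher and 36.2% lower in ETS1-Low, and 37.0% and 37.2% in ETS1-High. Between both ETS1 groups the shares over all genes were 29.9% and 29.3%. The counts of each role rest on few genes and are to be read beside these shares. HMGCS1, which makes HMG-CoA from acetyl-CoA and acetoacetyl-CoA, showed the largest change of the arm. It is annotated at chr5:43287470-43313512 on the minus strand (GENCODE v44, GRCh38).

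HMGCS1 stood at 134, 126 and 134 CPM in the RFP libraries, at 59.7, 58.7 and 58.8 CPM in ETS1-Low and at 117, 115 and 121 CPM in ETS1-High. The ETS1-Low libraries lay far below all others, and ETS1-High came close to RFP without reaching it. The fall in ETS1-Low was 2.23-fold, a log2 fold change of -1.16 (SE 0.03, edgeR adjusted p = 5.78e-34). In ETS1-High the gene fell by 0.16 on the log2 scale (SE 0.03, edgeR adjusted p = 1.02e-05), which leaves ETS1-High above ETS1-Low by 0.99 (SE 0.03, edgeR adjusted p = 2.41e-30). Genes within 10 Mb of HMGCS1 lay at a median of -0.43 (ETS1-Low) and -0.30 (ETS1-High), so neighbours on chromosome 5 were lower as well.

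ACAT2, the cytosolic thiolase that supplies acetoacetyl-CoA, read 68.7, 64.6 and 70.0 CPM in RFP, 53.5, 51.4 and 54.4 CPM in ETS1-Low, and 73.5, 74.5 and 75.8 CPM in ETS1-High. No group overlapped another, and the log2 fold change was -0.35 in ETS1-Low and 0.14 in ETS1-High (edgeR adjusted p = 1.31e-12 and 0.000342), the latter not called on the FPKM scale. Its exons overlap those of TCP1 on the other strand over 17.2% of their bases, TCP1 averaged 23380 counts against 2882 for ACAT2, and whether the counting used strand is not given in the sources used here. The kinases and the decarboxylase that turn mevalonate into isopentenyl diphosphate were less abundant.

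MVK, mevalonate kinase, averaged 17.4 ± 0.868 CPM in RFP, 14.4 ± 0.373 in ETS1-Low and 18.5 ± 0.387 in ETS1-High (SD, n = 3 for each group mean in the text). It fell in ETS1-Low (log2 fold change -0.27, edgeR adjusted p = 5e-05), and the difference of 0.09 in ETS1-High did not pass the test (edgeR adjusted p = 0.139) and had the other sign on the FPKM scale. PMVK, phosphomevalonate kinase, averaged 19.1 ± 1.43, 21.1 ± 0.991 and 23.3 ± 0.649 CPM in the same order. Its rise was 0.29 in ETS1-High and 0.15 in ETS1-Low, where RFP and ETS1-Low libraries overlapped, the difference was 0.01 and not called on the FPKM scale (limma adjusted p = 0.852), and the call was lost without RFP replicate 3 or ETS1-Low replicate 2. MVD, the diphosphomevalonate decarboxylase, read 8.60, 10.5 and 10.6 CPM in ETS1-Low, below the 10.7 to 12.5 CPM of RFP and the 14.5 ± 0.492 CPM of ETS1-High. Its log2 fold change of -0.22 in ETS1-Low (edgeR adjusted p = 0.00801) was no longer called without ETS1-Low replicate 1 (adjusted p = 0.143) or RFP replicate 3 (adjusted p = 0.0805), while its rise of 0.33 in ETS1-High had an adjusted p of 6.48e-05 but was not called on the FPKM scale.

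IDI1, the isomerase that makes dimethylallyl diphosphate, rose in both ETS1 groups, from 36.3 to 37.3 CPM in RFP to 43.2 to 44.6 in ETS1-Low and 49.4 to 53.1 in ETS1-High. Its log2 fold changes were 0.25 and 0.47 (edgeR adjusted p = 1.2e-07 and 6.83e-16), the former not called on the FPKM scale. FDPS, which joins these units into farnesyl diphosphate, was the member with the highest level per length, at a mean FPKM of 193 in RFP. It differed little: 167 to 169 CPM in RFP, 159.8 to 163 in ETS1-Low and 169.8 to 183 in ETS1-High. The ETS1-High difference from RFP was 0.07 on the log2 scale (edgeR adjusted p = 0.0408), turned to -0.05 on the FPKM scale, and lost its call without any 1 of the 3 RFP libraries or without ETS1-High replicate 3.

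In the sterol arm from squalene, with 12 members, 5 rose and 6 fell in ETS1-Low against RFP, 8 rose and 2 fell in ETS1-High against RFP, and between both ETS1 groups 8 were higher and 3 lower in ETS1-High, of which EBP stood close to the threshold (edgeR adjusted p = 0.0493). The medians were -0.0033, 0.33 and 0.47. Of all tested genes, 37.9% were called higher and 36.2% lower in ETS1-Low, 37.0% and 37.2% in ETS1-High, and 29.9% and 29.3% between both ETS1 groups. CYP51A1, TM7SF2, MSMO1, SC5D and DHCR7 rose in both ETS1 groups, while SQLE, LSS, NSDHL, HSD17B7, EBP and LBR fell in ETS1-Low.

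SQLE, squalene epoxidase, a rate-limiting step of the arm, stood at 94.3, 89.0 and 97.0 CPM in RFP, 72.9, 71.3 and 69.8 CPM in ETS1-Low and 107, 117 and 109.9 CPM in ETS1-High. The 3 groups did not overlap, with ETS1-Low lowest and ETS1-High highest. Its log2 fold change was -0.39 in ETS1-Low (SE 0.04, edgeR adjusted p = 8.86e-14) and 0.26 in ETS1-High (SE 0.03, edgeR adjusted p = 4.85e-09), and the direct difference between both ETS1 groups was 0.65 (SE 0.04, adjusted p = 3.52e-21). LSS, which closes the rings to lanosterol, had the same order, with 78.2 to 80.1 CPM in RFP, 70.0 to 71.7 in ETS1-Low and 102 to 105 in ETS1-High, and differed from RFP by -0.16 and 0.40. FDFT1, squalene synthase and the entry to the arm, was not called against RFP in either ETS1 group (110.2 to 121 CPM in RFP, 118 to 123 in ETS1-Low, 108 to 115 in ETS1-High), and its log2 difference of -0.10, ETS1-High minus ETS1-Low, had an edgeR adjusted p of 0.0127 that was lost without ETS1-Low replicate 1 or ETS1-High replicate 1. The small ETS1-Low difference of FDFT1 from RFP changed sign on the FPKM scale. Under some alternatives FDFT1 was called against RFP in each ETS1 group.

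NSDHL, a sterol dehydrogenase of the C4 demethylation complex that lies on the X chromosome, stood at 45.9, 41.7 and 44.5 CPM in RFP, 27.7, 27.2 and 28.6 CPM in ETS1-Low and 49.7, 50.7 and 49.2 CPM in ETS1-High. ETS1-Low lay below all other libraries, by -0.66 against RFP (SE 0.04, edgeR adjusted p = 6.16e-20). The genes within 10 Mb of NSDHL had a median of -0.37 in ETS1-Low and 0.16 in ETS1-High, so the neighbourhood moved the same way in each. HSD17B7, the ketoreductase of that complex, fell from 14.5 to 16.1 CPM in RFP to 9.25 to 10.8 in ETS1-Low (log2 fold change -0.60, edgeR adjusted p = 3.15e-11) and read 13.8 to 15.2 CPM in ETS1-High. The ETS1-High difference from RFP of -0.10 was not called (edgeR adjusted p = 0.159), but a fall was called under some alternatives. Mean FPKM of HSD17B7 was 14.1 in RFP and 11.8 in ETS1-High. Its counts were fractional in all 9 libraries, as where reads are divided between similar genes, so its level is uncertain.

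The largest rises among the 34 genes were those of SC5D, DHCR7 and MSMO1 in ETS1-High. SC5D, the desaturase that places the C5 double bond, is annotated at chr11:121292681-121313410 and read 24.0, 21.6 and 22.9 CPM in RFP, 33.1, 29.3 and 30.4 CPM in ETS1-Low and 51.4, 53.4 and 51.6 CPM in ETS1-High. The groups stood apart in the order RFP, ETS1-Low, ETS1-High. The rise was 2.28-fold in ETS1-High (log2 fold change 1.19, SE 0.04, edgeR adjusted p = 3.61e-29) and 1.35-fold in ETS1-Low (0.43, SE 0.05, edgeR adjusted p = 9.69e-12), with a median over neighbouring genes of 0.20 and 0.21.

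DHCR7, the reductase that turns 7-dehydrocholesterol into cholesterol, is annotated at chr11:71428193-71452868. It read 43.1, 43.3 and 49.2 CPM in RFP, 73.9, 77.2 and 76.6 CPM in ETS1-Low and 101, 103 and 102 CPM in ETS1-High, again with no overlap. It rose 2.26-fold in ETS1-High (log2 fold change 1.17, SE 0.04, edgeR adjusted p = 1.7e-29) and 1.68-fold in ETS1-Low (0.75, SE 0.04, edgeR adjusted p = 9.44e-22), where the neighbouring genes had medians of 0.40 and 0.44. MSMO1, the C4 methyl oxidase at chr4:165327667-165343164, read 30.4, 28.3 and 31.9 CPM in RFP, 36.4, 37.1 and 35.6 CPM in ETS1-Low and 63.0, 60.7 and 65.4 CPM in ETS1-High. Its ETS1-High level was 2.09-fold that of RFP (log2 fold change 1.06, SE 0.04, edgeR adjusted p = 9.03e-29), and its smaller rise of 0.27 in ETS1-Low was not called on the FPKM scale. The genes around MSMO1 were themselves higher, with medians of 0.78 (ETS1-High) and 0.74 (ETS1-Low), so MSMO1 lay 0.29 above its neighbourhood in ETS1-High and below it, at -0.47, in ETS1-Low.

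CYP51A1, the lanosterol demethylase, read 107, 102 and 110.1 CPM in RFP, 143, 140.4 and 144 CPM in ETS1-Low and 199, 183 and 197 CPM in ETS1-High. It rose by 0.42 and 0.86 on the log2 scale (edgeR adjusted p = 4.1e-16 and 1.22e-28), while its neighbours had medians of -0.04 and -0.03. Its counts were fractional in all 9 libraries, so its level is uncertain. An overlapping gene model on the same strand shares 68.2% of the exonic bases of CYP51A1, but the identifier of that model is not in the count table. TM7SF2, one of the C14 sterol reductases, rose from 9.91 to 11.0 CPM in RFP to 17.1 to 18.7 in ETS1-Low and 18.3 to 19.8 in ETS1-High (log2 fold change 0.78 and 0.86), with neighbours at 0.45 and 0.41. The 2 members of the arm that fell in ETS1-High were LBR, a nuclear envelope protein that is the other C14 sterol reductase, and EBP, the sterol isomerase. LBR went from 242 ± 9.35 CPM in RFP to 230.1 ± 2.87 in ETS1-Low and 199 ± 3.78 in ETS1-High (log2 fold change -0.28 in ETS1-High, edgeR adjusted p = 1.09e-11), and its call at -0.07 in ETS1-Low was lost without RFP replicate 1 or ETS1-Low replicate 2 or 3. EBP went from 52.9 ± 2.44 to 44.3 ± 0.895 and 41.7 ± 0.963 CPM (-0.26 and -0.34). It shares 36.4% of its exonic bases with a gene model on the same strand whose identifier is not in the count table.

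**Figure D2:**
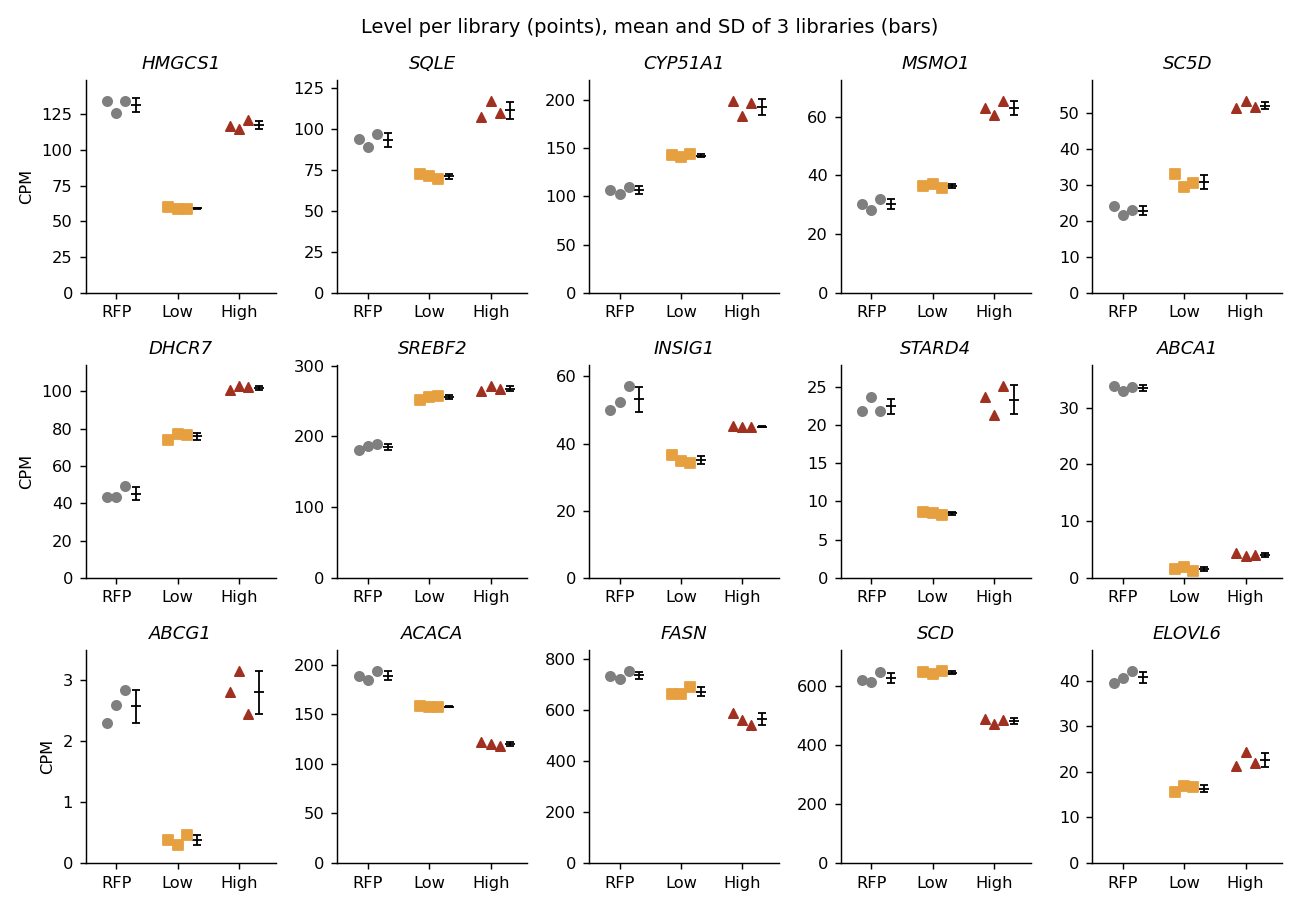
CPM of 15 of the 34 genes in each library (points; circles RFP, squares ETS1-Low, triangles ETS1-High), with the mean and SD of the 3 libraries beside them; each axis starts at 0. HMGCS1, STARD4 and ABCG1 dip in ETS1-Low and stand near the RFP level in ETS1-High, SC5D and DHCR7 step up in each ETS1 group, and ACACA and FASN step down.

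Among the 5 control genes, 4 rose and 1 fell in each ETS1 group against RFP, and INSIG1 was the gene that fell in both. Of all tested genes, 36.2 to 37.9% were called in each direction in these comparisons. SREBF2, which encodes the SREBP-2 that drives cholesterol synthesis, read 180.1, 186 and 189 CPM in RFP, 252, 256 and 258 CPM in ETS1-Low and 265, 271 and 267 CPM in ETS1-High. Both ETS1 groups lay above all RFP libraries, with log2 fold changes of 0.47 and 0.53 (edgeR adjusted p = 7.32e-20 and 3.13e-22). The genes within 10 Mb of SREBF2 had medians of 0.50 in ETS1-Low and 0.39 in ETS1-High, so the ETS1-Low value did not stand above its neighbourhood.

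SREBF1, which encodes the SREBP-1 of the fatty acid arm, averaged 142 ± 5.62 CPM in RFP, 171 ± 4.93 in ETS1-Low and 156 ± 3.95 in ETS1-High. It rose by 0.27 in ETS1-Low (edgeR adjusted p = 1.57e-10), with no call on the FPKM scale, and by 0.13 in ETS1-High (edgeR adjusted p = 0.000218), which turned to -0.07 on the FPKM scale. SCAP, the escort of SREBP, averaged 65.1 ± 1.83, 68.6 ± 2.36 and 72.5 ± 1.11 CPM. Its rise in ETS1-High was 0.15 (edgeR adjusted p = 6.61e-05, with no call on the FPKM scale), while the 0.08 in ETS1-Low (adjusted p = 0.0425) turned to -0.05 on the FPKM scale and lost its call without RFP replicate 1 or 2, ETS1-Low replicate 2 or 3, or ETS1-High replicate 3.

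The INSIG genes went in opposite directions. INSIG1, itself a target of SREBP, averaged 53.2 ± 3.63 CPM in RFP, where the highest library read 57.1, and read 36.5, 35.0 and 34.1 CPM in ETS1-Low and 45.2, 45.1 and 44.9 CPM in ETS1-High, with no overlap. It was lowest in ETS1-Low, and the changes against RFP were -0.60 and -0.24 on the log2 scale (edgeR adjusted p = 5.57e-18 and 7.86e-07). INSIG2 read 12.4, 11.3 and 11.9 CPM in RFP, 15.2, 15.3 and 13.7 CPM in ETS1-Low and 20.8, 20.4 and 20.1 CPM in ETS1-High. It rose by 0.31 and 0.78 (edgeR adjusted p = 1.67e-05 and 1.29e-16), the former not called on the FPKM scale, while neighbours had medians of 0.19 and 0.48. INSIG2 also had the lowest level per length of the 5 control genes, at a mean FPKM of 6.18 in RFP against 22.7 for INSIG1.

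The 5 transport and efflux genes held the largest differences among the 34. In ETS1-Low 4 fell and none rose, in ETS1-High 1 rose and 2 fell, and 4 of the 5 stood above ETS1-Low in ETS1-High. Against RFP, 36.2 to 37.9% of all tested genes were called in each direction, and 29.9% stood above ETS1-Low in ETS1-High. ABCA1, the exporter that loads cholesterol onto apolipoprotein A-I, is annotated at chr9:104781006-104928155 on the minus strand. It read 33.8, 32.8 and 33.6 CPM in RFP, 1.56, 1.98 and 1.25 CPM in ETS1-Low and 4.32, 3.76 and 3.94 CPM in ETS1-High.

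All 6 ETS1 libraries lay far below RFP, and ETS1-Low lay lowest. The fall was 20.8-fold in ETS1-Low (log2 fold change -4.38, SE 0.09, edgeR adjusted p = 1.51e-40) and 8.36-fold in ETS1-High (-3.06, SE 0.07, edgeR adjusted p = 5.93e-37). ETS1-High stood 2.48-fold above ETS1-Low (1.31, SE 0.12, edgeR adjusted p = 5.15e-14), which rests on 51 to 89 counts per ETS1-Low library and 169 to 176 per ETS1-High library for ABCA1. Neighbouring genes had medians of -0.48 and -0.02 against RFP.

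ABCG1, the exporter to lipoprotein particles, had 2.29, 2.58 and 2.83 CPM in RFP, 0.370, 0.289 and 0.464 CPM in ETS1-Low and 2.79, 3.14 and 2.44 CPM in ETS1-High. It fell 6.85-fold in ETS1-Low (log2 fold change -2.78, SE 0.21, edgeR adjusted p = 3.42e-17), from 110 to 138 counts to 13 to 19 counts per library. In ETS1-High the libraries of ABCG1 overlapped those of RFP, and the difference of 0.12 did not pass the test (SE 0.15, edgeR adjusted p = 0.461). So the exporters shared a low level in ETS1-Low, and in ETS1-High ABCA1 alone of them was called below RFP, with no test of one gene against the other.

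STARD4, which carries cholesterol between membranes in the cytosol, is annotated at chr5:111496033-111512590 and showed the same dip. It read 21.9, 23.6 and 21.9 CPM in RFP, 8.57, 8.52 and 8.23 CPM in ETS1-Low and 23.7, 21.3 and 25.1 CPM in ETS1-High. The ETS1-Low libraries lay well below the others, 2.66-fold under RFP (log2 fold change -1.41, SE 0.06, edgeR adjusted p = 7.06e-26) and 2.77-fold under ETS1-High (adjusted p = 5.97e-26), with neighbouring genes at a median of -0.45 against RFP. In ETS1-High, STARD4 differed from RFP by 0.06 (edgeR adjusted p = 0.373), which turned to -0.23 on the FPKM scale and was called there (limma adjusted p = 0.0239).

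The late endosomal pair NPC1 and NPC2, which hand sterol out of lysosomes, changed less. NPC1 averaged 38.5 ± 0.943 CPM in RFP, 35.9 ± 0.878 in ETS1-Low and 34.8 ± 1.29 in ETS1-High, and changed by -0.10 (edgeR adjusted p = 0.0266, lost without RFP replicate 3 or ETS1-Low replicate 1 or 2) and -0.14 (adjusted p = 0.00131). NPC2 read 14.5 to 17.1 CPM in RFP and 14.3 to 15.2 in ETS1-Low, which overlapped, and 19.7 to 21.2 in ETS1-High, a rise of 0.38 (edgeR adjusted p = 1.33e-07).

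**Figure D3:**
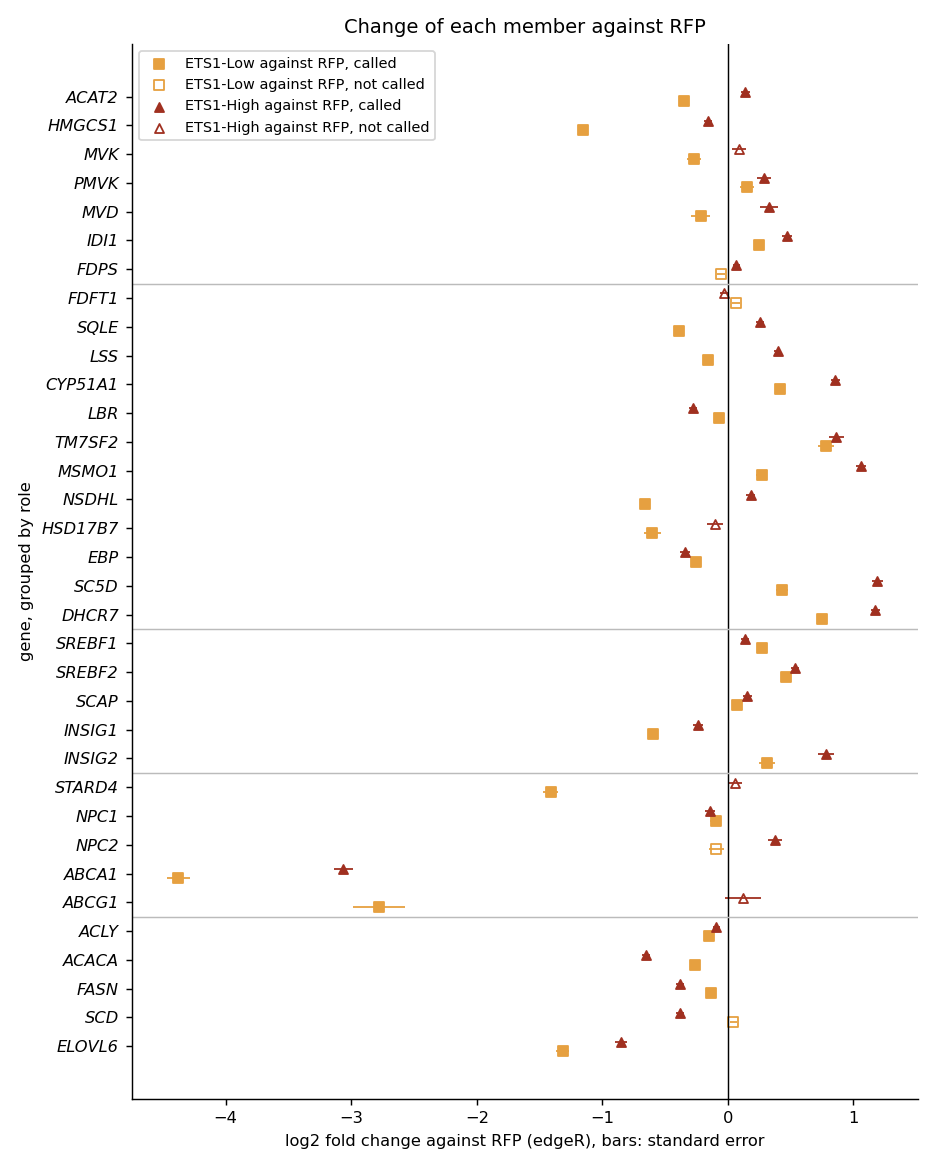
Log2 fold change of each gene against RFP from edgeR (x axis), with bars for the standard error, in ETS1-Low (squares) and ETS1-High (triangles); open symbols did not pass an adjusted p of 0.05, and lines divide the groups by role. ABCA1 lies far to the left in both groups, while HMGCS1, STARD4 and ABCG1 lie far to the left only as squares, at -1.16, -1.41 and -2.78.

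All 5 fatty acid synthesis genes fell in ETS1-High against RFP, 4 fell and none rose in ETS1-Low, and between both ETS1 groups 3 were lower and 1 higher in ETS1-High. The medians were -0.38, -0.15 and -0.25. Of all tested genes, 37.2% were called lower in ETS1-High against RFP, 36.2% in ETS1-Low against RFP and 29.3% between both ETS1 groups. FASN, SCD and ACLY were, after FDPS, the members with the highest level per length, at mean FPKM of 142, 128 and 114 in RFP.

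ACACA, acetyl-CoA carboxylase 1, which makes the malonyl-CoA that commits carbon to fatty acids, read 189, 184 and 194 CPM in RFP, 158, 157 and 157 CPM in ETS1-Low and 122, 120.0 and 118 CPM in ETS1-High. The groups did not overlap, with the lowest values in ETS1-High. It fell by 0.26 and by 0.65 on the log2 scale against RFP (SE 0.03 for each, edgeR adjusted p = 3.37e-11 and 2e-25), while its neighbours had medians of 0.00 and -0.01. FASN, the fatty acid synthase, read 735, 722 and 753 CPM in RFP, 662, 663 and 692 CPM in ETS1-Low and 589, 561 and 544 CPM in ETS1-High. It also stepped down without overlap, by 0.13 and by 0.38 (edgeR adjusted p = 0.000145 and 4.89e-16), and its ETS1-High difference from ETS1-Low of -0.25 was not called on the FPKM scale.

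SCD, the stearoyl-CoA desaturase that makes oleate, read 621, 612 and 645 CPM in RFP, 646, 639 and 649 CPM in ETS1-Low and 488, 469 and 483 CPM in ETS1-High. ETS1-Low overlapped RFP (log2 difference 0.04, edgeR adjusted p = 0.188, turning to -0.09 and called on the FPKM scale), and ETS1-High lay below both, with a fall of 0.38 against RFP (edgeR adjusted p = 9.99e-17). Genes within 10 Mb of SCD lay at a median of -0.46 (ETS1-High) and -0.02 (ETS1-Low), so in each group SCD lay within 0.08 of its neighbourhood. The counts of FASN and SCD were fractional in 8 and 7 of the 9 libraries.

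ELOVL6, which lengthens palmitate to stearate, read 39.5, 40.6 and 42.1 CPM in RFP, 15.5, 16.8 and 16.7 CPM in ETS1-Low and 21.3, 24.3 and 21.9 CPM in ETS1-High. Both ETS1 groups lay far below RFP, ETS1-Low lower, with falls of 2.49-fold (log2 fold change -1.32, SE 0.05, edgeR adjusted p = 5.76e-29) and 1.81-fold (-0.85, SE 0.05, edgeR adjusted p = 5.06e-22). ELOVL6 in ETS1-High stood above ETS1-Low by 0.46 (edgeR adjusted p = 1.08e-10), by 0.21 on log2(FPKM + 1) (limma adjusted p = 0.0331), and without a call there when low genes were not filtered (limma adjusted p = 0.0942). Its neighbours had medians of -0.43 and -0.39. ACLY, which cuts citrate to acetyl-CoA and so feeds both branches, averaged 435 ± 16.8 CPM in RFP, 392 ± 8.37 in ETS1-Low and 408 ± 1.44 in ETS1-High. It fell by 0.15 in ETS1-Low (edgeR adjusted p = 1.71e-05) and by 0.09 in ETS1-High (edgeR adjusted p = 0.00497), the latter lost without RFP replicate 3.

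**Figure D4:**
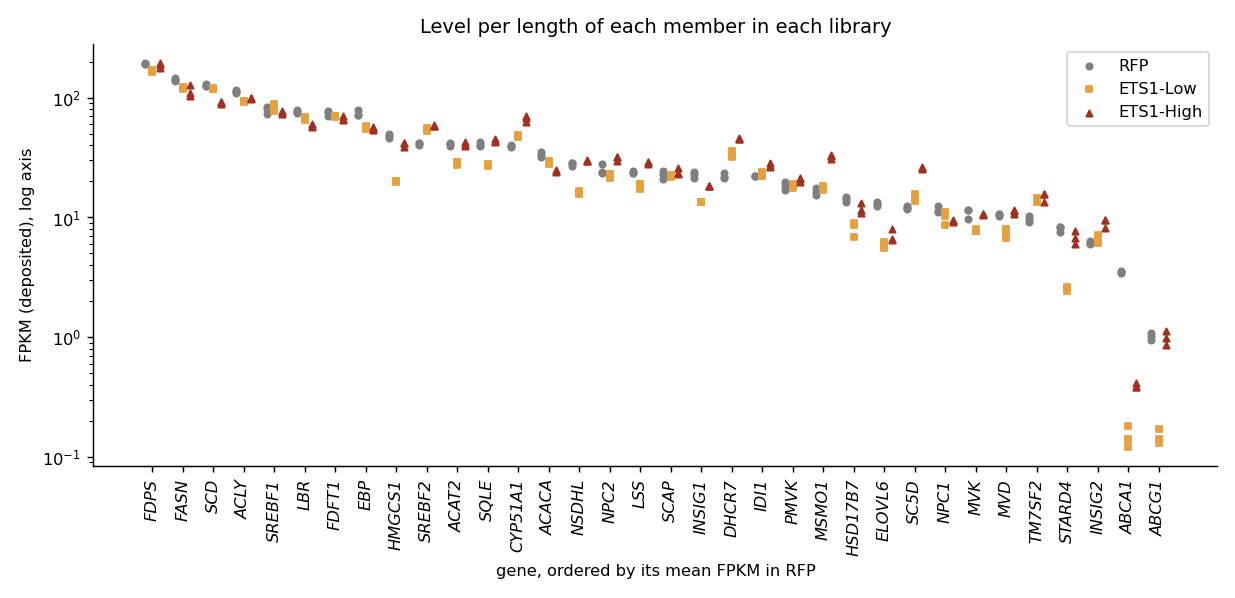
Deposited FPKM of each gene in each library on a log axis, with genes ordered by their mean in RFP (circles RFP, squares ETS1-Low, triangles ETS1-High). The genes run from FDPS at 193 to ABCG1 at 1.02 in RFP, and the ETS1-Low squares of ABCA1 and ABCG1 stand lowest of all, at a mean of 0.147 each.

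Each member was set beside the genes within 10 Mb on either side whose mean log2 CPM was above 1. After the neighbours' median was subtracted, 27 of the 30 called members kept their sign in ETS1-Low against RFP, 27 of 29 in ETS1-High against RFP and 30 of 31 in ETS1-High against ETS1-Low. The median of the 34 genes was then -0.22, 0.18 and 0.33. Of the called genes among the other lipid genes described below, 47 of 57, 49 of 53 and 42 of 47 kept their sign in the same order. The share over all genes was not computed, so keeping the sign is not shown to be particular to the members. The neighbours were higher around MSMO1, TM7SF2, DHCR7, SREBF2 and INSIG2 and lower around HMGCS1, STARD4 and ELOVL6 in both comparisons with RFP. They were also lower around ABCA1 (-0.48) and NSDHL (-0.37) in ETS1-Low, and around SCD (-0.46) and FDFT1 (-0.33) in ETS1-High. The part of the neighbours in the results for these genes was not tested.

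**Figure D5:**
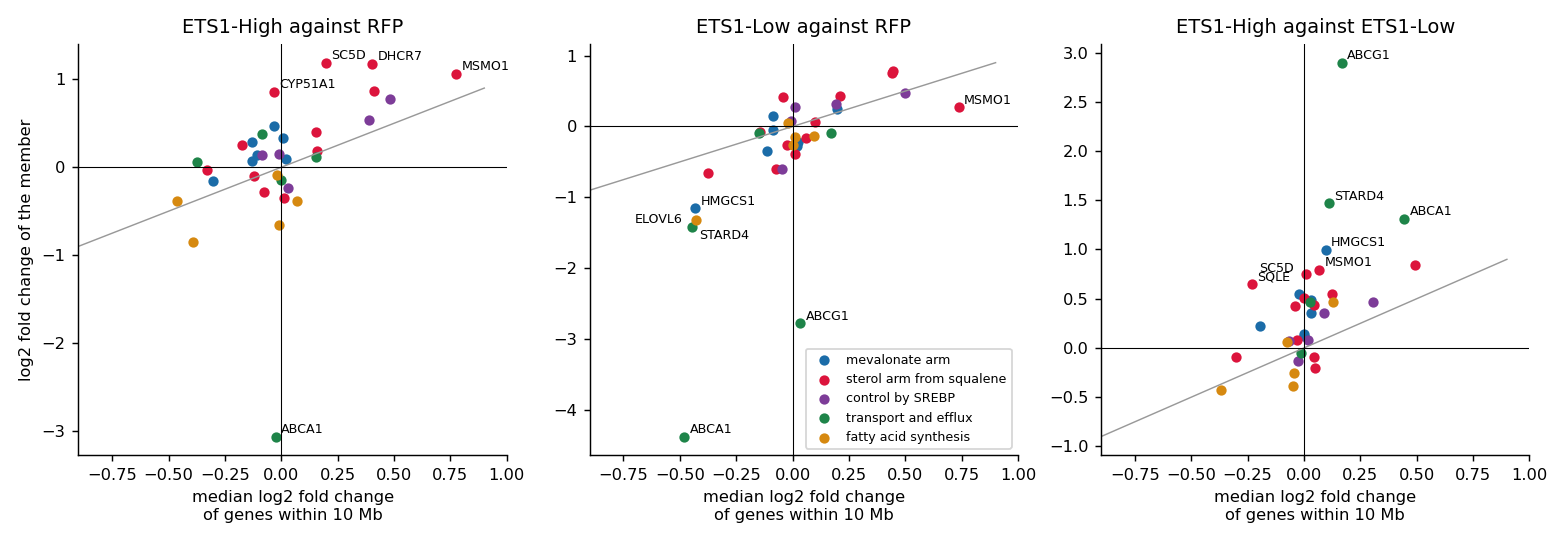
Log2 fold change of each gene (y axis) against the median log2 fold change of the genes within 10 Mb of it (x axis) in the 3 comparisons, coloured by role, with a grey line where both are equal. ABCA1, ABCG1 and STARD4 lie far from the line in ETS1-Low against RFP, and MSMO1, at a neighbours' median of 0.78, lies close to it in ETS1-High against RFP.

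Of 66 other genes of lipid synthesis, uptake and sterol sensing that are not among the 34, 65 were tested. In ETS1-Low against RFP 35 rose and 22 fell, in ETS1-High against RFP 33 rose and 20 fell, and between both ETS1 groups 24 were higher and 23 lower in ETS1-High. As shares of the 65 these are 53.8 and 33.8%, 50.8 and 30.8%, and 36.9 and 35.4%. Over all tested genes the shares called higher and lower were 37.9 and 36.2%, 37.0 and 37.2%, and 29.9 and 29.3% in the same order. On the FPKM scale the calls in ETS1-High against RFP became 20 higher and 24 lower. Among the called genes only, the share that was higher was then 45.5% in place of 62.3%. VLDLR, a lipoprotein receptor, averaged 12.1 CPM in RFP, 4.77 in ETS1-Low and 9.90 in ETS1-High, so it was lowest in ETS1-Low (-1.35, edgeR adjusted p = 1.95e-21). Genes within 10 Mb of VLDLR had a median of -0.53 there. NR1H3, which encodes LXR alpha, the activator of ABCA1 and ABCG1, rose by 0.25 in ETS1-Low and fell by 0.28 in ETS1-High (edgeR adjusted p = 0.0105 and 0.00597), from 5.74 CPM in RFP to 6.82 and 4.73 CPM.

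In fatty acid elongation and desaturation, HACD2, a dehydratase of the elongation cycle, rose from 58.4 CPM in RFP to 83.7 in ETS1-Low and 175 in ETS1-High (log2 fold change 0.52 and 1.58, edgeR adjusted p = 1.45e-18 and 1e-39). ELOVL4, an elongase of very long chains, fell from 17.1 CPM to 3.77 and 6.87 (-2.19 and -1.32), the same order as ELOVL6. SCD5, a second stearoyl-CoA desaturase, fell from 66.3 CPM to 35.8 and 29.3 (-0.89 and -1.18). FADS3, of the fatty acid desaturase family, and ACSL1, which activates long-chain fatty acids, rose in both ETS1 groups, by 1.12 and 1.10 for FADS3 and by 0.95 and 1.13 for ACSL1. Neighbouring genes had medians in ETS1-Low and ETS1-High of 0.46 and 0.42 for FADS3 and 0.59 and 0.62 for ACSL1. For HACD2 they were -0.02 and 0.02, for ELOVL4 -0.14 and -0.11, and for SCD5 -0.38 and -0.27.

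RNF145, a sterol-responsive ubiquitin ligase, fell from 276 CPM in RFP to 153 in ETS1-Low and 159.8 in ETS1-High (log2 fold change -0.85 and -0.79, edgeR adjusted p = 2.07e-30 and 3.83e-29). Its neighbours fell as well, with medians of -0.45 and -0.43. Of the triglyceride-forming acyltransferases, DGAT1 was 0.52 lower and DGAT2 0.94 higher in ETS1-High, set against ETS1-Low (edgeR adjusted p = 8.26e-16 and 1.05e-07), where DGAT2 averaged 1.85 CPM in ETS1-Low and 3.58 in ETS1-High. PDSS1, which builds the isoprenoid tail of coenzyme Q from the products of the mevalonate arm, averaged 22.9 CPM in RFP, 37.4 in ETS1-Low and 23.6 in ETS1-High. ETS1-High lay below ETS1-Low by a log2 difference of -0.66 (edgeR adjusted p = 3.2e-17), opposite to all 7 members of that arm. In that comparison the neighbours' medians were -0.41 for DGAT1, -0.02 for DGAT2 and -0.23 for PDSS1.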

How the data were processed

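RNA-seq of 9 libraries of TC-32 cells was used, 3 each of RFP, ETS1-Low and ETS1-High, grouped by sample title. The authors deposited RSEM expected counts and RSEM FPKM per gene, per the file headers. The submitters' processing notes name cutadapt 4.4, STAR 2.7.3, featureCounts of Subread 2.0.3, limma 3.38.3 and GRCh38 (hg38), with no role given. Strand use in counting is not given in the sources used here. Every column was matched to a library by name (0 left over). Between 9.00 and 10.3% of the deposited expected counts per library were not whole, since RSEM divides reads shared between genes.

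Expected counts were rounded and tested with edgeR 4.0.16 (R 4.3.3; TMM, filterByExpr, robust glmQLFit, glmQLFTest), all 9 libraries in 1 fit with group as the factor. P-values were adjusted by Benjamini-Hochberg over all 17235 genes tested, and a call is an adjusted p under 0.05. Levels are CPM on TMM-normalised library sizes. Deposited FPKM served to compare levels between genes per length and as an alternative (limma 3.58.1 on log2(FPKM + 1), where fold changes of low genes are understated). The other alternatives were DESeq2 1.42.0, limma voom, other size factors and filters, fits of only the groups compared, a replicate block and leaving out each library. The code was tested on simulated data. Replicate libraries differed beyond sampling noise (chi-square per gene 2.66 to 5.19, where noise gives 1), so each counted once. Counting error is only part of the spread, since libraries without molecular identifiers count PCR copies.

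Positions came from GENCODE v44 (17094 of the genes tested), promoters from RefSeq (GRCh38.p14). All 34 members are described. Of the other lipid genes, those named are the 3 with the largest change in each direction and comparison, among called genes averaging 100 counts or more. A gene so selected is not reported here. The members and the lists were chosen with earlier results of these data known.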

Additional observations from a re-analysis of the deposited data

Results flagged for a closer look

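For 31 of the 34 genes, the change against RFP differed between both ETS1 groups by the direct edgeR test of ETS1-High against ETS1-Low (adjusted p under 0.05), where 29.9% of all tested genes were higher and 29.3% lower by that test. The log2 differences, ETS1-High minus ETS1-Low, follow by role.

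In the mevalonate arm the difference was 0.49 for ACAT2, 0.99 for HMGCS1, 0.36 for MVK, 0.14 for PMVK, 0.54 for MVD, 0.22 for IDI1 and 0.12 for FDPS, higher in ETS1-High for each. In the sterol arm it was 0.65 for SQLE, 0.55 for LSS, 0.44 for CYP51A1, 0.79 for MSMO1, 0.84 for NSDHL, 0.50 for HSD17B7, 0.76 for SC5D and 0.43 for DHCR7. FDFT1, LBR and EBP were lower in ETS1-High, at -0.10, -0.207 and -0.0888.

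Among the control genes SREBF1 differed by -0.13, SREBF2 by 0.0679, SCAP by 0.0789, INSIG1 by 0.36 and INSIG2 by 0.47. SREBF2 and SCAP stood close to the threshold (edgeR adjusted p = 0.0409 and 0.044). The calls of SREBF1, SREBF2 and SCAP, like that of PMVK in the mevalonate arm, were lost under some alternatives. In transport, STARD4 differed by 1.47, NPC2 by 0.47, ABCA1 by 1.31 and ABCG1 by 2.90. Among the fatty acid genes the difference was -0.39 for ACACA, -0.25 for FASN, -0.42 for SCD and 0.46 for ELOVL6.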

How the results depend on the processing

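Each of the 3 comparisons was recomputed under 20 alternatives. Of 678 recomputed gene values per comparison, 634 kept direction and call in ETS1-High against RFP, 617 in ETS1-Low against RFP and 626 in ETS1-High against ETS1-Low, where none reversed. Some alternatives called members that the main fit did not, with the same direction. They were FDFT1 and HSD17B7 in ETS1-High against RFP, FDFT1, FDPS and NPC2 in ETS1-Low against RFP, and ACLY between both ETS1 groups. Leaving out 1 library gave 17 to 18 members higher and 10 to 11 lower in ETS1-High against RFP, 9 to 11 and 17 to 20 in ETS1-Low, and 22 to 24 and 5 to 7 between both ETS1 groups. The replicate numbers did not pair libraries (r of same-numbered deviations -0.0295 to 0.0276). With the replicate block, 18 members were higher and 11 lower in ETS1-High against RFP, 11 and 19 in ETS1-Low, and 24 and 6 between both ETS1 groups. EBP lost its call there (adjusted p = 0.0516). With the block edgeR called 12701, 12729 and 10122 genes in all.

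The FPKM scale changed most. On it, 5 members were higher in ETS1-Low against RFP and 3 lower in ETS1-High against ETS1-Low under each of 3 FPKM settings. With log2(FPKM + 1), 2 members in ETS1-High against RFP and 1 in ETS1-High against ETS1-Low were called at 2-fold. Of the other lipid genes, 20 were higher in ETS1-High against RFP with a mean FPKM of at least 1. The median of members in ETS1-High against RFP turned to -0.0247 (log2(FPKM + 1)), -0.0264 (FPKM + 0.1) and -0.0263 (no filter).

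Signs that turned in ETS1-High against RFP, with log2(FPKM + 1), log2(FPKM + 0.1) and no filter in that order, were MVK (-0.0247, -0.0264, -0.0247), FDPS (-0.0512, -0.0514, -0.0512), SREBF1 (-0.069, -0.0697, -0.069) and STARD4 (-0.2262, -0.2542, -0.2262). ABCG1 turned to -0.0279 with no filter. STARD4 also turned to -0.0053 with upper-quartile factors and to -0.0001 without ETS1-High replicate 3, and FDFT1 to 0.0108 without RFP replicate 3 and 0.0018 without ETS1-High replicate 1; leaving out 1 library gave -0.0001 to 0.1233 for STARD4 and -0.056 to 0.0108 for FDFT1. In ETS1-Low against RFP, SCD turned to -0.0903, -0.091 and -0.0903 and, with upper-quartile factors, -0.0078, FDFT1 to -0.0942, -0.0953 and -0.0942, and SCAP to -0.0519, -0.0539 and -0.0519. The cause was not tested. Depth limits ABCG1 in ETS1-Low, with 13 to 19 counts per library.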
